A study of Mus musculus with 8 samples.

Results

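The genes examined here encode 10 proteins of the cell surface by which fibroblasts are commonly recognised or sorted: Thy1, Cd34, Pdgfra, Pdgfrb, Ly6a, Eng, Dpp4, Fap, Cd44 and Itgb1. Their members on the array are the probe sets (groups of short probes read as 1 value) whose platform annotation gives exactly 1 gene symbol and whose symbol is among these 10. The rule selected 24 of the 45037 probe sets tested and 9 of the 18193 genes named there. Ly6a is not analysed here. Thy1, Cd34 and Fap each had 1 probe set, Pdgfrb and Eng 2 each, Pdgfra 3, Dpp4 and Cd44 4 each, and Itgb1 6.

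Expression had been measured with 8 Affymetrix arrays. The cells were embryonic fibroblasts of C57BL/6 mice that lacked Stat5 and had received a mutant STAT5 by a retroviral vector. STAT5 is a transcription factor that growth hormone activates through phosphorylation of a tyrosine. The groups of 2 arrays were EA cells given growth hormone for 120 minutes, EA cells without stimulation, YF cells given growth hormone for 120 minutes, and YF cells without stimulation. EA stands in the labels for a binding-domain change of EE to AA, and YF for Y694F, a change of the phosphorylation site. All 4 groups thus share the Stat5-null background and carry a mutant. No arrays of cells with wild-type STAT5 or an empty vector are analysed here. The labels name 1 vector per mutant and do not say how many infections or starting cultures lie behind the arrays, so the mutant and the infected population cannot be told apart. The submitters describe both arrays of each group as biological duplicates. Where these came from 1 infected population, the p-values measure only the spread between its samples.

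Embryonic fibroblast cultures are mixed populations of mesenchymal cells, and no single surface protein marks all of them. Thy1 is a lipid-anchored glycoprotein, Cd34 a sialomucin shared with blood progenitors and endothelium, and Pdgfra and Pdgfrb the receptor tyrosine kinases for platelet-derived growth factors. Eng is a co-receptor for TGF-beta and BMP ligands, Dpp4 and Fap are related membrane serine proteases, Cd44 is the main receptor for hyaluronan, and Itgb1 is the beta chain that pairs with many integrin alpha chains.

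The authors deposited log2 expression values, 1 for each probe set and array. For 24773 probe sets (55.0%) the mean of the 8 arrays was below 4. This dense group of dim values is called the low group here, and folds that reach into it have an uncertain size. Of the 24 members, 17 had a mean of 4 or more and 7 lay in the low group. A gene is represented by its brightest probe set, and differences were tested with limma over all probe sets, with a difference said to pass at a Benjamini-Hochberg adjusted p under 0.05. In bulk RNA, fewer cells of a type and less RNA per cell cannot be told apart. Levels of different probe sets are not set against each other, because probes differ in brightness.

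Replicate arrays correlated at 0.996 to 0.998 over all probe sets. The first principal component held 69.9% of the variance and separated the 4 EA arrays (scores of -66.4 to -61.4) from the 4 YF arrays (62.4 to 64.9). On the next component, with 12.6%, the YF array with hormone of replicate 1 stood at 55.8, against 3.28 for its replicate and -25.8 and -32.6 for the YF arrays without hormone. The Stat5a probe set 1450259_a_at, which cannot show whether a signal comes from the vector, read 4.28 and 4.86 in EA cells with hormone, 4.83 and 5.36 in EA cells without it, 8.51 and 7.87 in YF cells with hormone and 7.95 and 7.82 in YF cells without it. It was thus lower in EA cells by a log2 change of -3.20 (SE 0.22, limma adjusted p = 0.000938). The other Stat5a probe set and both of Stat5b lay in the low group. Among general mesenchymal genes, Vim (the filament protein vimentin) averaged 14.94 ± 0.05 in EA and 14.91 ± 0.06 in YF cells, and Col1a2 (a collagen chain) averaged 14.63 ± 0.07 in EA and 14.61 ± 0.07 in YF cells (SD, n = 4 arrays each). Of the 16 genes of that list, 14 had a mean of 4 or more over the EA arrays and 15 over the YF arrays, with Lum in the low group in both and Dcn in EA cells only, and 8 passed between EA and YF cells (6 lower, 2 higher).

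The stretches before the transcription starts of 4 members are shown because probe sets of these genes passed between EA and YF cells and because STAT5 binds the palindrome TTCNNNGAA. They are the 250 bases upstream, 5′ to 3′ on the gene's strand, taken from RefSeq on GRCm38.p6, whose promoter table held 6 of the 10 genes. Thy1, which passed too and with the largest change, was not among them, so its window is neither shown nor searched. Capitals mark GGGCGG, the GC box. Both motifs were sought on both strands, and they do not overlap here.
Cd34, upstream of the start (chr1:194938571-194938820, plus strand): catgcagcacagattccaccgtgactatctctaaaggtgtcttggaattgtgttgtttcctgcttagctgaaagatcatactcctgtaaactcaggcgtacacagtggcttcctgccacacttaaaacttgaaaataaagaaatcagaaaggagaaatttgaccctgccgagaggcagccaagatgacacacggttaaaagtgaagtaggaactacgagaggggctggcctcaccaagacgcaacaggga
Eng, upstream of the start (chr2:32646345-32646594, plus strand): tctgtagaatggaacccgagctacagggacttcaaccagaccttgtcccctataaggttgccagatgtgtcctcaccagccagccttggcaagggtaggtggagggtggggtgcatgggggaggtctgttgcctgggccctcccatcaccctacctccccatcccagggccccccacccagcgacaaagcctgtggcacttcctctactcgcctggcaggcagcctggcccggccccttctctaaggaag
Cd44, upstream of the start (chr2:102901666-102901915, minus strand): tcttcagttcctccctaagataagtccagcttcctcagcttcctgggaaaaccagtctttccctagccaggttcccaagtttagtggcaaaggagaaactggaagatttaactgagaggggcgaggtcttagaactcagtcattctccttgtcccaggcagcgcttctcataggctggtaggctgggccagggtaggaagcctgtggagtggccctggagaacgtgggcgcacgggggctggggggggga
Itgb1, upstream of the start (chr8:128685404-128685653, plus strand): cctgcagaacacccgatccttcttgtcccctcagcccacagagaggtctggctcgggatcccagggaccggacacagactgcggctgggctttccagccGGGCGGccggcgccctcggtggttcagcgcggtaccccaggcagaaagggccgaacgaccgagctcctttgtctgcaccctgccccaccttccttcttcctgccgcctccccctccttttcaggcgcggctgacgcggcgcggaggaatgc
TTCNNNGAA occurred in 0 of these 4 windows, against 7.0% of the 32851 windows of the same length in the table. GGGCGG occurred in the window of Itgb1 only, beginning 151 bases before the start, and in 32.7% of all windows. A match or its lack is a description of these letters and says nothing about the binding of a factor. GC content was 46.4% for Cd34, 62.4% for Eng, 56.4% for Cd44 and 68.0% for Itgb1.

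EA cells differed from YF cells most in Thy1, whose RNA signal was about 31.2-fold lower, while Cd34 and Itgb1 were lower by less and the brightest probe sets of both PDGF receptors, Eng, Fap, Cd44 and Dpp4 did not pass. Averaged over the treatments, 9 of the 24 member probe sets passed, 7 lower and 2 higher in EA cells, or 37.5%. Over all probe sets 16.5% passed. Among those with a mean of 4 or more, 9 of the 17 members passed (52.9%), against 33.8% of all such probe sets. With 1 probe set per gene, 3 of the 9 genes passed as lower (Thy1, Cd34 and Itgb1) and 0 as higher, 33.3% in all, against 22.9% of all genes, of which 10.5% were lower and 12.3% higher. The median change over the 24 members was 0.02, against 0.02 over all probe sets. Over the 17 members with a mean of 4 or more it was -0.23, against 0.03 over all such probe sets. With 1 probe set per gene it was -0.23 over the 9 genes, against 0.02 over all genes. The members were not tested as a set.

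**Figure D1:**
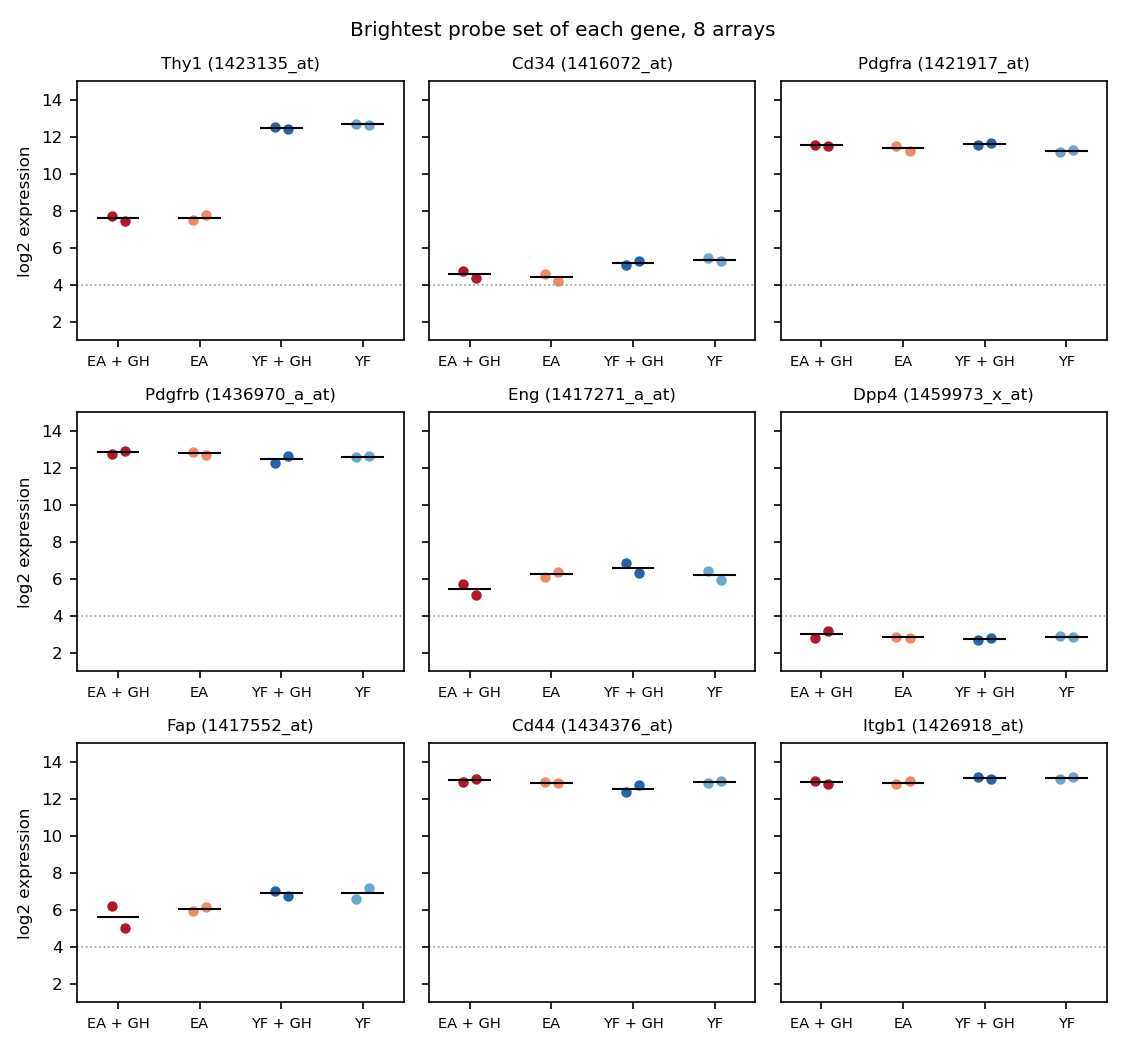
Deposited log2 expression of the brightest probe set of each of the 9 genes on the 8 arrays. Points are arrays, with replicate 1 at the left of its pair, bars are group means, and the dotted line is the bound of the low group at 4. Thy1 stands between 7.48 and 7.79 on the EA arrays and between 12.45 and 12.71 on the YF arrays, and Dpp4 stays below the bound on every array.

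Thy1 (probe set 1423135_at, gene 21838), the marker also called CD90, read 7.72 and 7.48 in EA cells with hormone and 7.49 and 7.79 in EA cells without it, against 12.54 and 12.45 in YF cells with hormone and 12.71 and 12.64 in YF cells without it. All 4 EA arrays lay far below all 4 YF arrays, and neither side lay in the low group. The log2 change averaged over the treatments was -4.96 (SE 0.09, 95% interval -5.19 to -4.74, limma adjusted p = 1.79e-05). It was the probe set with the 47th largest fall among 45037. With hormone the change was -4.89 (limma adjusted p = 0.000104) and without it -5.03 (limma adjusted p = 9.8e-05). In the order of group means, EA with hormone (7.60) and EA without (7.64) were neighbours that did not pass against each other, and so were YF with hormone (12.49) and YF without (12.68).

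Cd34 (1416072_at, gene 12490) read 4.77 and 4.40 in EA cells with hormone and 4.62 and 4.22 in EA cells without it, against 5.06 and 5.28 in YF cells with hormone and 5.43 and 5.30 in YF cells without it. All EA arrays were below all YF arrays, by a small margin and close to the low group. The averaged log2 change was -0.77 (SE 0.13, 95% interval -1.10 to -0.43, limma adjusted p = 0.0165). With hormone it was -0.59 and did not pass (limma adjusted p = 0.139), and without it -0.95 (limma adjusted p = 0.0363). The averaged call was lost without EA hormone replicate 2 (limma adjusted p = 0.0513) and without YF replicate 1 (limma adjusted p = 0.0614), and with values under 4 raised to 4 (limma adjusted p = 0.0587).

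Eng, endoglin, had 2 probe sets that differed in their call. The brighter one, 1417271_a_at, read 5.72 and 5.15 in EA cells with hormone and 6.12 and 6.36 in EA cells without it, against 6.86 and 6.32 in YF cells with hormone and 6.42 and 5.96 in YF cells without it. The EA arrays without hormone lay among the YF arrays, and those with hormone were the lowest of the 8. Its averaged log2 change of -0.55 did not pass (SE 0.21, limma adjusted p = 0.173).

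The dimmer Eng probe set, 1432176_a_at, read 4.01 and 4.08 in EA cells with hormone and 4.16 and 4.05 in EA cells without it, against 5.45 and 4.86 in YF cells with hormone and 5.73 and 5.14 in YF cells without it. Here the EA arrays sat together just above the low group, and all YF arrays were higher. The averaged log2 change was -1.22 (SE 0.19, 95% interval -1.69 to -0.75, limma adjusted p = 0.0111), and the call was lost without EA hormone replicate 1 (limma adjusted p = 0.0509). The reason for the unequal probe sets was not tested.

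Itgb1, the integrin beta 1 chain, was bright in all cells and slightly lower in EA cells by its brightest probe set. That probe set, 1426918_at, read 12.97 and 12.82 in EA cells with hormone and 12.82 and 12.96 in EA cells without it, against 13.17 and 13.09 in YF cells with hormone and 13.09 and 13.16 in YF cells without it. The arrays did not overlap, but the averaged log2 change was only -0.23 (SE 0.05, limma adjusted p = 0.0409). The call was kept in 3 of 14 alternatives, with the direction the same in all 14, and was lost when arrays were centred on their medians (limma adjusted p = 0.108).

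Of the other Itgb1 probe sets, 3 were also lower in EA cells. Probe set 1452545_a_at changed by -0.31 (SE 0.06, limma adjusted p = 0.0229, kept in 7 of 14 alternatives). Probe set 1426920_x_at changed by -1.10 (SE 0.18, limma adjusted p = 0.0142, kept in 11 of 14). Probe set 1426919_at changed by -0.91 (SE 0.22, limma adjusted p = 0.0466, kept in 4 of 14), with overlapping arrays. Among the 8 alternatives that leave out 1 array, the call of 1426918_at was kept only without EA hormone replicate 1 (limma adjusted p = 0.0474) and that of 1426919_at only without YF hormone replicate 1 (0.0347). The call of 1452545_a_at was lost without EA hormone replicate 2 (limma adjusted p = 0.0692), EA replicate 1 (0.0779), YF hormone replicate 1 (0.05001), YF replicate 1 (0.062) or YF replicate 2 (0.0822), and that of 1426920_x_at without EA hormone replicate 1 (0.0502) or YF replicate 2 (0.0535). The probe set 1427771_x_at showed no passing change (-0.02, SE 0.04, limma adjusted p = 0.787), and 1438119_at lay in the low group. The sizes thus differed between probe sets of 1 gene, from -0.02 to -1.10 among those with a mean of 4 or more.

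Cd44, the hyaluronan receptor, went the other way by 2 of its 4 probe sets. The brightest, 1434376_at, averaged 12.95 ± 0.10 in EA and 12.74 ± 0.28 in YF cells (SD, n = 4 arrays each) and did not pass (0.21, SE 0.10, limma adjusted p = 0.297). Probe set 1452483_a_at read 9.23 and 8.78 in EA cells with hormone and 9.04 and 8.98 in EA cells without it, against 8.59 and 8.15 in YF cells with hormone and 7.64 and 7.53 in YF cells without it. All EA arrays were above all YF arrays. The averaged log2 change was 1.03 (SE 0.14, 95% interval 0.67 to 1.39, limma adjusted p = 0.00788), and it passed in all 14 alternatives. With hormone the change was 0.63 and did not pass (limma adjusted p = 0.141), and without it 1.43 (limma adjusted p = 0.0132). Probe set 1423760_at was higher by 0.29 (SE 0.07, limma adjusted p = 0.0435), with overlapping arrays. Its call was kept in 4 of 14 alternatives, and among the 8 that leave out 1 array it was kept only without YF replicate 1 (limma adjusted p = 0.0216). The fourth, 1443265_at, lay in the low group.

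**Figure D2:**
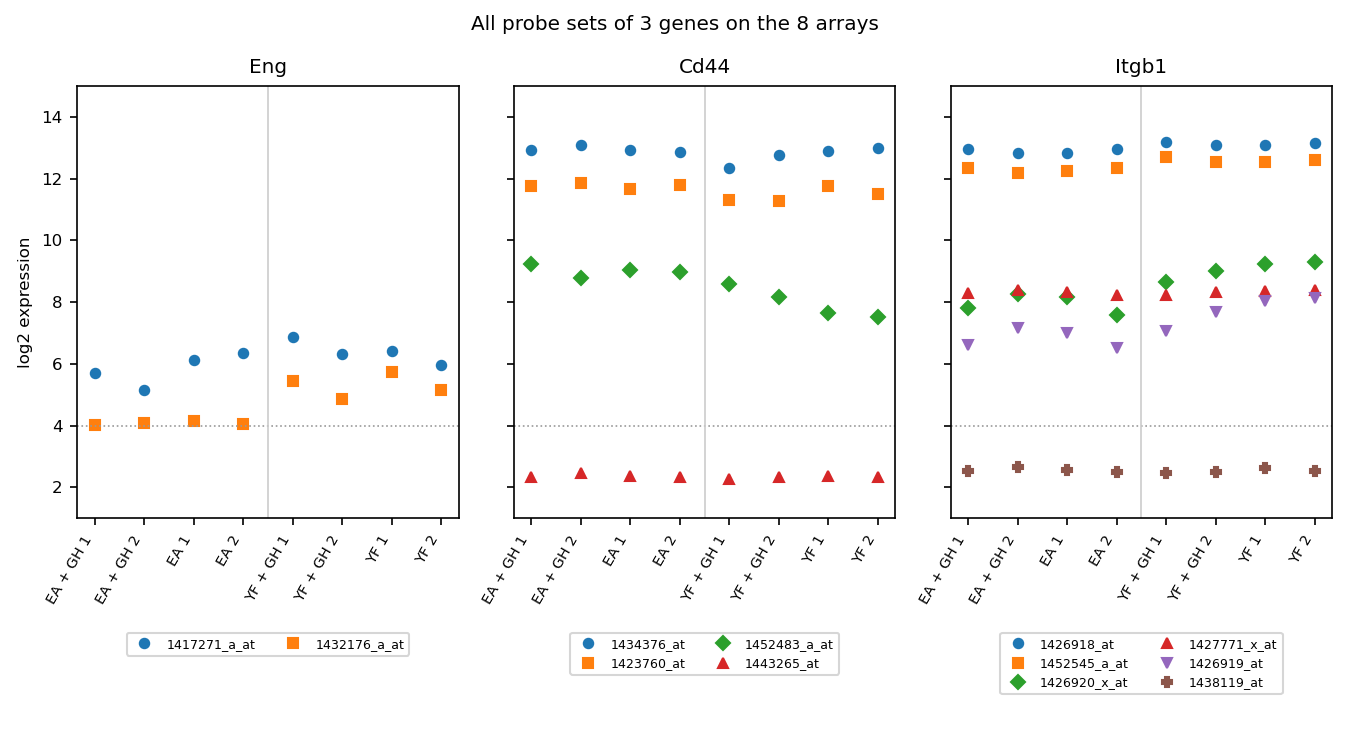
Deposited log2 expression of every probe set of Eng, Cd44 and Itgb1 on the 8 arrays, with EA arrays left of the grey line and YF arrays right of it. The dotted line is the bound at 4. The EA arrays of Eng 1432176_a_at lie between 4.01 and 4.16, and Cd44 1452483_a_at is higher on every EA array than on any YF array.

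Fap, fibroblast activation protein (1417552_at), read 6.21 and 5.01 in EA cells with hormone and 5.95 and 6.13 in EA cells without it, against 7.05 and 6.77 in YF cells with hormone and 6.60 and 7.18 in YF cells without it. The groups did not overlap, but the EA arrays with hormone lay farther apart than any other pair. The averaged log2 change of -1.07 did not pass (SE 0.30, 95% interval -1.84 to -0.31, limma adjusted p = 0.0774). It passed without EA hormone replicate 1 (-1.37, limma adjusted p = 0.0223), when only probe sets with a mean of at least 4 were fitted (limma adjusted p = 0.0256), and with an intensity trend and robust spread (limma adjusted p = 0.0178). Dpp4, the related protease also called CD26, had 4 probe sets, all in the low group and between 1.96 and 3.16 on every array, and none passed.

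Pdgfra, a receptor widely used as a fibroblast marker, read 11.58 and 11.53 in EA cells with hormone and 11.51 and 11.27 in EA cells without it, against 11.58 and 11.65 in YF cells with hormone and 11.19 and 11.31 in YF cells without it (1421917_at). The EA and YF arrays overlapped, and the averaged log2 change was 0.04 (95% interval -0.13 to 0.20, limma adjusted p = 0.756). Its probe set 1438946_at overlapped too (0.15, SE 0.41), and 1421916_at lay in the low group.

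Pdgfrb, the sister receptor also found on mural cells, averaged 12.82 ± 0.09 in EA and 12.54 ± 0.18 in YF cells (1436970_a_at; SD, n = 4 arrays each). All EA arrays were above all YF arrays, yet the change of 0.28 did not pass (95% interval 0.03 to 0.53, limma adjusted p = 0.141). Its other probe set, 1417148_at, did not pass either (0.20, limma adjusted p = 0.496). Counting arrays without overlap, 9 of 24 member probe sets (37.5%) separated EA from YF, 7 lower and 2 higher, against 18.6% of all probe sets. Among those with a mean of 4 or more it was 9 of 17 members (52.9%), against 36.1% of all such probe sets.

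**Figure D3:**
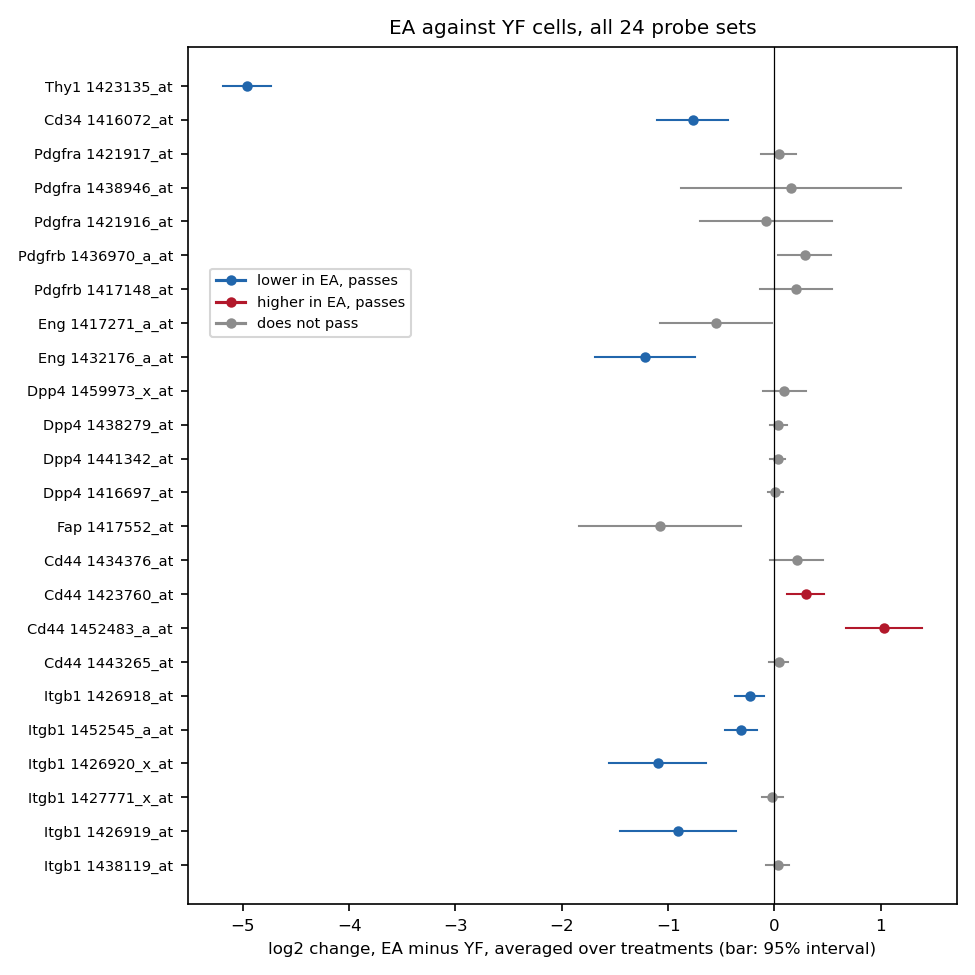
Log2 change of EA minus YF cells, averaged over the treatments, for the 24 member probe sets. Points are limma estimates and bars 95% intervals, with blue for lower and red for higher in EA cells at an adjusted p under 0.05 and grey for the rest. Thy1 stands apart at -4.96, and the other passing changes run from -1.22 to 1.03.

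By treatment, 2 of the 24 probe sets passed with hormone, Thy1 lower and Cd44 1423760_at higher in EA cells (8.33%), against 10.2% of all probe sets. Without hormone 5 of 24 passed, 4 lower and 1 higher in EA cells (20.8%), against 10.8% of all probe sets. Of the 17 members with a mean of 4 or more, 11.8% passed with hormone, against 20.7% of all such probe sets. For the same members it was 29.4% without hormone, against 22%. Besides Thy1, the calls without hormone were those of Cd34, Eng 1432176_a_at, Cd44 1452483_a_at and Itgb1 1426920_x_at (-1.40, limma adjusted p = 0.0286). The call of Cd34 without hormone was lost whichever of the 8 arrays was left out (limma adjusted p of 0.0507 to 0.16). Those of the Eng, Cd44 and Itgb1 probe sets were lost without EA replicate 2 (limma adjusted p = 0.155, 0.0631 and 0.0933) or YF replicate 1 (0.123, 0.061 and 0.115), those of Eng and Cd44 also without EA replicate 1 (0.129 and 0.0703), those of Cd44 and Itgb1 also without YF replicate 2 (0.074 and 0.128), and that of Eng also without either EA array with hormone (0.0868 each). The call of Cd44 1423760_at with hormone (0.50, limma adjusted p = 0.0351) was lost without any 1 of the EA arrays or of the YF arrays with hormone (limma adjusted p of 0.0619 to 0.171). Thy1 passed under both treatments whichever array was left out. That a probe set passed under 1 treatment and not the other does not show that the difference itself changed. The test of that change, the difference of the hormone responses, passed in limma for 0 of the 24 members, against 0.02% of all probe sets. At an unadjusted p under 0.05 in limma there were 4 members, against 4385 of all 45037 probe sets.

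Growth hormone for 120 minutes changed 0 of the 24 member probe sets past the threshold in EA cells (limma), against 0.135% of all probe sets. At an unadjusted p under 0.05 in limma there was 1 member, against 2529 of all 45037 probe sets. In YF cells the count past the threshold was also 0 of 24 (limma), against 0.18% of all probe sets. There 4 members had an unadjusted p under 0.05 in limma, against 5114 of all 45037 probe sets. These comparisons of 2 arrays with 2 leave wide intervals. For Thy1 the log2 change was -0.04 in EA cells (95% interval -0.36 to 0.28) and -0.18 in YF cells (-0.50 to 0.14), and neither passed (limma adjusted p = 0.927 and 0.546).

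Among the brightest probe sets, the change with the lowest p in EA cells was that of Eng, at -0.81 (95% interval -1.56 to -0.07, limma adjusted p = 0.802), with 0.40 in YF cells (-0.34 to 1.14). The difference between these responses was -1.21 and did not pass (95% interval -2.26 to -0.16, limma adjusted p = 0.446). In YF cells it was that of Pdgfra, at 0.37 (0.13 to 0.60, limma adjusted p = 0.273), with 0.16 in EA cells (-0.07 to 0.40). The YF array with hormone that stood apart read 11.58 for Pdgfra against 11.65 for its replicate. For Cd44 in YF cells the probe sets differed in sign and none passed: 1434376_at changed by -0.38 (-0.74 to -0.03, limma adjusted p = 0.413), 1423760_at by -0.34 (-0.58 to -0.09, limma adjusted p = 0.319) and 1452483_a_at by 0.79 (0.28 to 1.30, limma adjusted p = 0.276). For Cd34 the changes were 0.17 in EA cells (-0.31 to 0.64) and -0.20 in YF cells (-0.67 to 0.28). For Fap the intervals were widest, -1.51 to 0.65 in EA cells and -1.06 to 1.09 in YF cells, and for Itgb1 they were -0.18 to 0.20 in both.

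**Figure D4:**
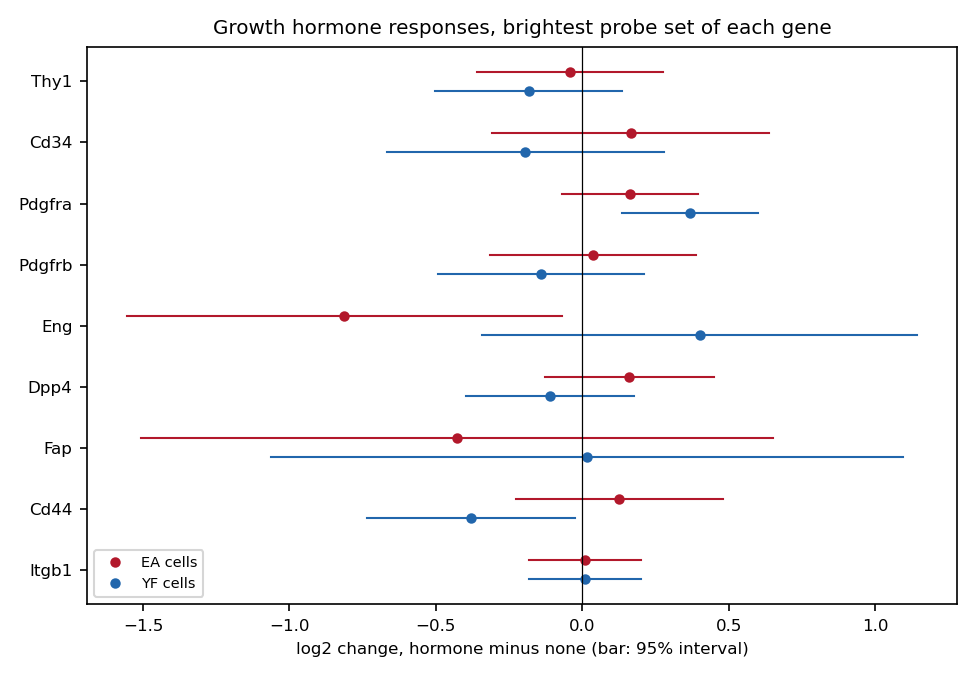
Log2 change with growth hormone against none in EA cells (red) and YF cells (blue) for the brightest probe set of each gene. Points are limma estimates and bars 95% intervals. None passed after adjustment over all probe sets, and the 3 intervals that leave out 0 are those of Eng in EA cells and of Pdgfra and Cd44 (1434376_at) in YF cells; Cd44 1452483_a_at, not plotted, went the other way there (0.79).

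For the 3 genes that passed on their brightest probe set, the most alike patterns over the 8 arrays were sought as the smallest root mean square difference between values centred on each probe set's mean. Thy1 was followed most closely by Cnn1 (calponin, an actin-binding protein, difference 0.160), Sfrp1 (a secreted Wnt antagonist, 0.161) and Lipg (a lipase, 0.185). Sfrp1 averaged 7.36 in EA and 12.05 in YF cells, and the log2 changes of Cnn1 and Lipg were -4.82 and -5.09. Lipg lay in the low group in EA cells. The nearest to Cd34 were Prpf31 (a splicing factor, 0.100), Me2 (a malic enzyme, 0.116) and Nectin3 (an adhesion protein, 0.123), and the nearest to Itgb1 were Col1a1 (0.0286), Osbpl2 (0.0319) and S100a4 (0.0357). Likeness over 8 arrays in 2 clusters is a description.

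Relatives and partners of the surface genes were read by list, each against the 22.9% of all genes that passed and their median change of 0.02. The 22.9% includes genes in the low group, and 33.8% passed among all probe sets with a mean of 4 or more. Shares near either value are not read as results about a list. Of 7 PDGF ligands and sister receptors, 3 were lower and 1 higher in EA cells (57.1% passing), with a median change of -0.33. Pdgfb, which lay in the low group by its mean over the 8 arrays (3.72), averaged 2.64 ± 0.20 in EA and 4.80 ± 0.78 in YF cells (limma adjusted p = 0.000214). Pdgfd averaged 11.66 ± 0.08 in EA and 13.04 ± 0.20 in YF cells (limma adjusted p = 0.000371). Pdgfa changed by -0.33 and Pdgfc by 0.22, and the sister receptors Kit, Csf1r and Flt3 did not pass.

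Among integrin chains, 11 of 12 listed alpha partners of Itgb1 were measured, and 3 were lower and 1 higher in EA cells (36.4% passing, median -0.05). Itga9 averaged 7.46 ± 0.18 in EA and 3.51 ± 0.47 in YF cells, a log2 change of 3.95 whose YF side lay in the low group (limma adjusted p = 0.000251). Itga1, a collagen-binding chain, averaged 9.32 ± 0.09 in EA and 10.83 ± 0.11 in YF cells (limma adjusted p = 0.000244). Itga4 and Itga3 changed by -1.04 and -0.53. Of 7 other beta chains, Itgb3 (-1.13) and Itgb5 (-0.57) were lower and Itgb8 (1.44) higher (42.9% passing).

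Of 8 receptors that work with endoglin, 3 were higher and 2 lower in EA cells (62.5% passing, median 0.02), among them the co-receptor Tgfbr3 (1.58, SE 0.10, limma adjusted p = 0.000611), Tgfbr1 (-0.69), Bmpr1a (0.45) and Tgfbr2 (0.43). Of 10 measured genes of hyaluronan metabolism and Cd44 anchoring, 2 passed (20%, not above the share of all genes), the hyaluronan-degrading Cemip lower (-1.10) and the hyaluronan-binding Tnfaip6 higher (0.61). Of 6 relatives of Dpp4 and Fap, Prep was lower (-0.51) and Dpp8 higher (0.22), or 33.3% passing. Of 2 sialomucin relatives of Cd34, Podxl was lower (-0.54), but it lay in the low group, as Podxl2 did. Podxl averaged 2.09 in EA cells with hormone, 2.07 in EA cells without it, 3.14 in YF cells with hormone and 2.10 in YF cells without it. Its EA minus YF change was thus -1.05 with hormone and -0.03 without it, and its hormone response in YF cells passed (1.04).

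Relatives of Ly6a could be read for 11 of 14 genes, of which 2 were higher and 2 lower in EA cells (36.4% passing) and 6 lay in the low group. Slurp1 averaged 7.58 ± 0.17 in EA and 2.04 ± 0.04 in YF cells (limma adjusted p = 1.38e-05), with its YF side in the low group. Lypd6 averaged 4.41 ± 0.44 in EA and 6.59 ± 0.04 in YF cells. Lypd1 changed by -1.68 with its EA side in the low group, and Ly6e by 0.45.

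Of 11 other surface markers of stromal cells, 4 were lower and 3 higher in EA cells (63.6% passing, median -0.26). Icam1, an adhesion ligand for leukocyte integrins, averaged 4.57 ± 1.04 in EA and 7.82 ± 0.60 in YF cells (limma adjusted p = 0.00166). By treatment it averaged 5.38 with hormone and 3.76 without it in EA cells, and 8.29 and 7.35 in YF cells. The EA mean without hormone is below 4, so the size of this change is uncertain. Mcam averaged 11.77 ± 0.03 in EA and 10.09 ± 0.25 in YF cells (limma adjusted p = 5.8e-05). Alcam and Nt5e, both used to define mesenchymal stromal cells, changed by -1.16 and -0.99.

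Of 12 genes that mark fibroblast subsets, 5 were higher and 3 lower in EA cells (66.7% passing, median 0.05). The collagen gene Col15a1 averaged 9.29 ± 0.20 in EA and 3.67 ± 0.14 in YF cells (limma adjusted p = 1.87e-05), with its YF side in the low group. Dlk1, an inhibitor of adipocyte formation, averaged 13.00 ± 0.03 in EA and 10.50 ± 0.14 in YF cells. The transcription factor Tbx18 changed by 1.95 and the complement regulator Cd55 by -1.67.

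**Figure D5:**
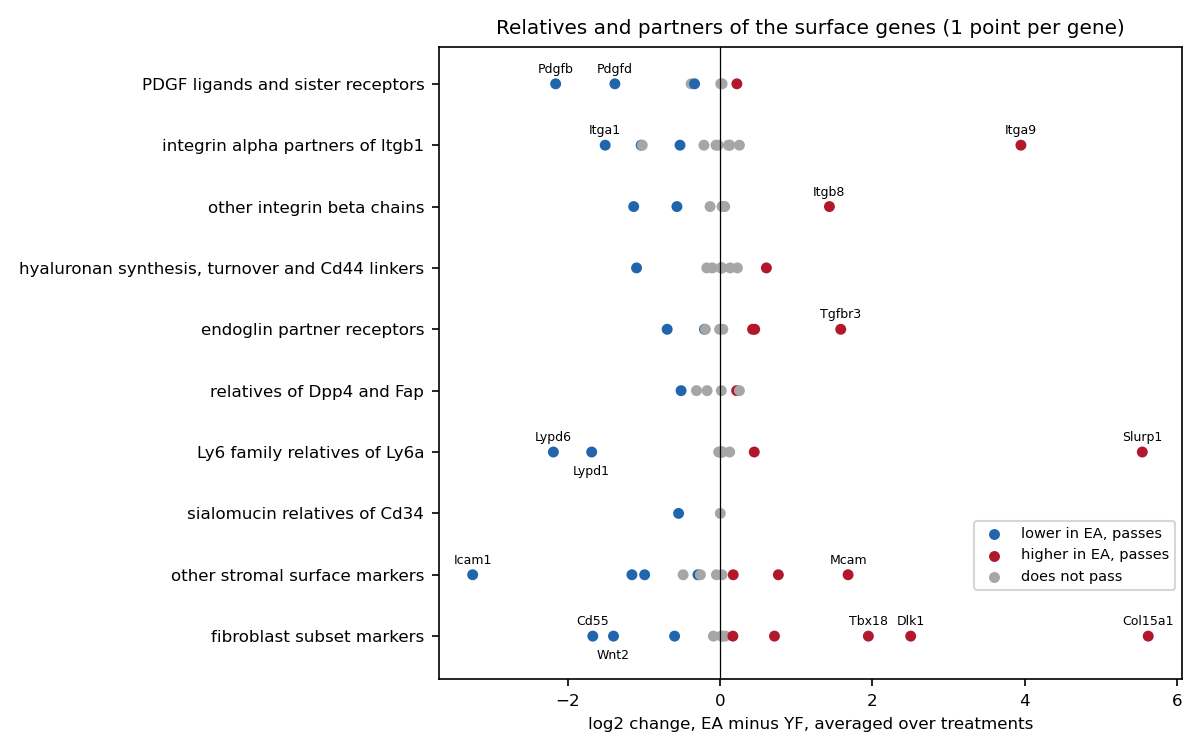
Log2 change of EA minus YF cells, averaged over the treatments, for the measured genes of 10 lists of relatives and partners, by the brightest probe set of each gene. Blue and red points passed in limma as lower and higher in EA cells, and grey points did not. Most lists hold points on both sides of 0. Slurp1, Col15a1 and Itga9 at the right have their YF side in the low group, and Lypd1 at the left its EA side. Pdgfb at the left lies in the low group by its mean, and Icam1 averaged below 4 in EA cells without hormone. The sizes of these changes are uncertain.

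Markers of other cell types were read in the same comparison, where 22.9% of all genes passed. Of all probe sets with a mean of 4 or more, 33.8% passed. Mural and smooth muscle cells can carry Thy1 and Pdgfrb, and of their 8 markers 4 were lower and 2 higher in EA cells (75% passing), with a mean level of 8.06 to 8.24 on the EA arrays and 9.55 to 9.78 on the YF arrays. Cnn1, Myh11 and Rgs5 changed by -4.82, -4.47 and -4.19, with the EA side of Myh11 in the low group, Notch3 changed by 1.31, and Des was in the low group throughout. Of 16 general mesenchymal genes, 6 were lower and 2 higher (50% passing), with a mean level of 12.19 to 12.34 on the EA arrays and 12.52 to 12.65 on the YF arrays. The matrix proteoglycan Dcn averaged 3.33 ± 0.59 in EA and 7.78 ± 0.45 in YF cells, with its EA side in the low group. Lum changed by -0.92 within the low group, Cd248 by 0.66 and Twist2 by 0.47.

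Endothelial cells carry Cd34 and Eng, and 7 of their 8 markers, Pecam1 and Cdh5 among them, lay in the low group on all 8 arrays, and Tek was lower in EA cells (-1.58), the 1 of 8 that passed (12.5%). The mean level of the endothelial list was 2.71 to 2.81 on the EA arrays and 2.892 to 2.995 on the YF arrays. Blood cells carry Cd44 and Cd34, and of their 9 measured markers 7 lay in the low group, including Ptprc, with 5 below 4 on all 8 arrays. Cd68 was higher in EA cells (3.15), the 1 of 9 that passed (11.1%). Csf1r, the other marker outside the low group, averaged 8.31 in EA and 8.69 in YF cells and did not pass. The mean level of the blood cell list was 4.07 to 4.26 on the EA arrays and 3.64 to 3.84 on the YF arrays.

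Of 6 epithelial markers 5 lay in the low group and 2 passed (33.3%). Krt19 averaged 9.92 ± 0.40 in EA and 4.72 ± 0.74 in YF cells, Krt18 changed by 0.39 within the low group, and the mean level was 3.59 to 3.75 on the EA arrays and 2.60 to 2.85 on the YF arrays. Of 5 mesothelial markers 2 passed (40%): Msln changed by 5.87, with its YF side in the low group, and Wt1 by -5.29, with its EA side there. The mean level of the mesothelial list was 3.58 to 3.68 on the EA arrays and 3.28 to 3.71 on the YF arrays. Of 3 adipocyte markers measured none passed in limma. At an unadjusted p under 0.05 in limma there was 1, against 6184 of all 18193 genes. The mean level of the adipocyte list was 7.78 to 7.95 on the EA arrays and 7.94 to 8.39 on the YF arrays. Of 6 neural markers Sox2 (-1.47) and Tubb3 (-1.45, low group) were lower and Nes (1.37) higher (50% passing), with a mean level of 5.89 to 5.98 on the EA arrays and 6.16 to 6.38 on the YF arrays. The part of these differences in the changes of Thy1, Cd34, Eng, Cd44 and Itgb1 was not tested.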

How the data were processed

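RNA of 8 samples in 4 groups of 2 was hybridised to 1 Affymetrix array each. The authors deposited log2 expression values; the submitters' processing notes name GCOS and RMA, with versions and settings not given in the sources used here. RMA as a method summarises probes after quantile normalization, and array medians of 2.85 to 2.94 were left as they were. Of 45101 probe sets, 64 controls were left out. Names came from the platform annotation: 34945 probe sets had 1 symbol, 932 several and 9160 none, and the gene IDs of the 9 measured genes matched RefSeq.

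limma 3.58.1 (R 4.3.3; lmFit, eBayes, prior df 1.26) was fitted to 4 group means on all 8 arrays, with 6 contrasts, two-sided tests and Benjamini-Hochberg adjustment over 45037 probe sets. The number of arrays limits the precision, and no detection calls were used.

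The named genes are all 10 members, the 3 most alike probe sets per passing member, and up to 4 passing genes per list with the largest change; further genes were named for their role after their values were seen. The members and lists were chosen with earlier results of these data known. The labels do not say whether arrays with the same replicate number belong together, and the main fit did not pair them. Alternatives changed the scaling, the low values, the spread model, the block and the arrays included.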

Additional observations from a re-analysis of the deposited data

How the results depend on the processing

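The count of 9 member probe sets that passed between EA and YF cells averaged over the treatments became 3 with values under 4 raised to 4, 6 with the replicate block, and 4 to 8 when 1 array was left out (4 without EA hormone replicate 2 or YF replicate 2, 5 without EA or YF replicate 1). With hormone the count of 2 became 4 among probe sets with a mean of at least 4, 1 with raised values, 6 with a trend and robust spread, 1 with the replicate block and 1 to 4 with 1 array left out (4 without YF hormone replicate 2, 1 without YF hormone replicate 1, EA hormone replicate 2 or either EA array without hormone). Without hormone the count of 5 became 1 with raised values, 2 when only the 4 arrays of the comparison were fitted, 4 with the replicate block and 1 to 5 with 1 array left out (1 without EA replicate 2 or YF replicate 1, 2 without EA replicate 1 or YF replicate 2, 3 without either EA array with hormone). The hormone counts and their difference were 0 under every alternative run. The labels do not say whether arrays with the same number belong together. Deviations of same-numbered arrays correlated at -0.303 to 0.367 between groups, which cannot settle this, and the block is no evidence of pairing. The fit with values raised to 4 holds fewer varying probe sets. The share of all probe sets that passed moved too. Averaged over the treatments it was 10% with raised values and 15% with the block. With hormone it was 25.4% among probe sets with a mean of at least 4 and 4.41% with raised values. It was 11.7% there with a trend and robust spread and 8.55% with the block. Without hormone it was 5% with raised values and 9.32% with the block. The changed counts are thus not read as results about the members. The cause of the changed counts was not tested for any alternative.

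Of 785 gene values under alternatives, 715 kept direction and side of the threshold, 15 passed anew, 25 no longer passed and 30 changed sign, none of them called in either fit. With quantile normalization the hormone change of Thy1 in EA cells was 0.0004013 and that of Fap in YF cells -0.075; with arrays centred on their medians those of Pdgfrb and Itgb1 in EA cells were -0.00088 and -0.029. With 1 array left out, EA minus YF ran from -0.022 to 0.10 for Pdgfra averaged, from -0.18 to 0.28 for Eng and from -0.094 to 0.0014 for Cd44 without hormone. Hormone changes in EA cells ran from -0.19 to 0.11 for Thy1, -0.031 to 0.36 for Cd34, -0.043 to 0.12 for Pdgfrb, -0.0025 to 0.32 for Dpp4, -1.03 to 0.17 for Fap and -0.065 to 0.082 for Itgb1. In YF cells they ran from -0.33 to 0.049 for Pdgfrb, -0.28 to 0.31 for Fap and -0.0303 to 0.0485 for Itgb1. Their differences ran from -0.01 to 0.29 for Thy1, -0.012 to 0.37 for Pdgfrb, -1.04 to 0.16 for Fap and -0.074 to 0.072 for Itgb1. With 2 arrays a group and no detection calls, differences of probe sets in the low group cannot be sized.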
